A study of Mus musculus with 9 samples.

Results

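Cytotoxic granule genes were followed in mouse CD4+ T cells before culture and after they had become Foxp3 reporter-positive by either of 2 routes. The 9 genes were granzyme A (Gzma), granzyme B (Gzmb), perforin (Prf1), natural killer cell granule protein 7 (Nkg7), cathepsin W (Ctsw), serglycin (Srgn), Fas ligand (Fasl) and the protease inhibitors Serpinb9 and Serpinb6b. They were chosen by symbol, and all 9 had a row among the 14912 rows of the expression table.

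Cytotoxic lymphocytes keep granzymes, which are serine proteases, packed on the proteoglycan serglycin in secretory granules together with perforin. On contact with a target the granules are released, perforin opens the target's membranes, and granzyme B cleaves substrates such as caspases and Bid in its cytosol. Fas ligand kills by a separate route, through the receptor Fas, and intracellular serpins protect the cell that makes the proteases. In mouse regulatory T cells, granzyme B has been described as one means by which they kill other cells.

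All cells came from mice of strain B6.Cg-Foxp3tm2(EGFP)Tch/J that were hemizygous for the Foxp3 tm2Tch allele, which reports Foxp3 expression as eGFP, so every group carried the reporter. The mTO-iTreg group held CD4+ Foxp3 eGFP+ cells taken at day 5 of a co-culture with murine colorectal cancer (CRC) tumour organoids, with anti-CD3 and anti-CD28 at 1 µg/ml each and interleukin 2 (IL-2) at 20 U/ml. The TGFβ-iTreg group held CD4+ Foxp3 eGFP+ cells taken at day 5 of a culture with TGFβ at 10 ng/ml, both antibodies at the same dose, and IL-2 at 300 U/ml. The day 0 group held eGFP- CD4+ T cells isolated before any culture. Each group had 3 libraries, made in bulk by a modified CEL-Seq method, which reads the 3′ ends of transcripts. Whether the 3 libraries of a group stem from different animals or cultures is not in the labels. The p-values below reflect the spread among the samples alone, and that spread may be technical. The iTreg groups differed in organoids, TGFβ and IL-2 dose at once, and the library codes of the mTO-iTreg samples have another form than those of the other samples, so the parts of these differences cannot be told apart.

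Library totals were 7551177 to 7969853 counts in mTO-iTreg, 2078223 to 9944952 in TGFβ-iTreg and 2267922 to 5328169 in day 0, and a single count was worth 0.494 to 2.69 normalized counts. The reporter gene followed the labels: eGFP was 262 to 462 normalized counts in mTO-iTreg, 588 to 695 in TGFβ-iTreg and 26.3 to 86.5 in day 0. Foxp3 itself was also lowest in day 0 but ordered the iTreg groups the other way. It averaged 62.6 in mTO-iTreg, 16.5 in TGFβ-iTreg, on 60 counts in all, and 3.63 in day 0. All 10 listed CD4+ T cell markers were detected in each group. Values below are the deposited normalized counts. Changes are differences of log2(normalized count + 1), which understate the change of low genes, with standard errors (SE) and adjusted p-values from limma over the 10983 genes tested, and a gene was called at an adjusted p under 0.05. Alternatives below are 22 other settings of the same analysis.

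Granzyme B, Nkg7, cathepsin W and Serpinb9 were called higher in both iTreg groups than at day 0. In TGFβ-iTreg the call of Serpinb9 ended in 12 of 22 alternatives and that of Nkg7 in 6. Serpinb6b was higher in mTO-iTreg than in either other group. Fas ligand was called lower in TGFβ-iTreg than at day 0 in a call that ended in 17 of 22 alternatives. Perforin was highest at day 0, on low counts. In mTO-iTreg against day 0, 5 of the 9 genes were called higher, where 33.9% of all genes tested were called (19.4% higher and 14.5% lower). None of the 9 was called lower there by limma, 1 (perforin) was lower at an unadjusted p under 0.05, and 1 was called lower by limma-voom on recovered counts. In TGFβ-iTreg against day 0, 4 genes were called higher and 2 lower (Fas ligand and perforin), where 18.6% of all genes were called (9.78% higher and 8.80% lower). Between the iTreg groups, 4 genes were called higher and 1 lower in mTO-iTreg, where 26.6% of all genes were called (14.9% higher and 11.8% lower). By the libraries alone, 6 of the 9 genes were higher in every mTO-iTreg than in every day 0 library and 1 was lower, against 25.8% and 20.3% of all genes tested. In TGFβ-iTreg 4 were higher and 2 lower than in every day 0 library (18.0% and 17.8% of all genes), and in mTO-iTreg 5 were higher and 1 lower than in every TGFβ-iTreg library (25.9% and 18.7%). The contrasts of the iTreg groups with day 0 share the day 0 libraries. All 9 genes passed the filter on low values, but perforin passed only through day 0, where it is high, so its place among the lower genes is a description. In bulk samples, fewer cells of a type and less RNA per cell cannot be told apart.

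**Figure D1:**
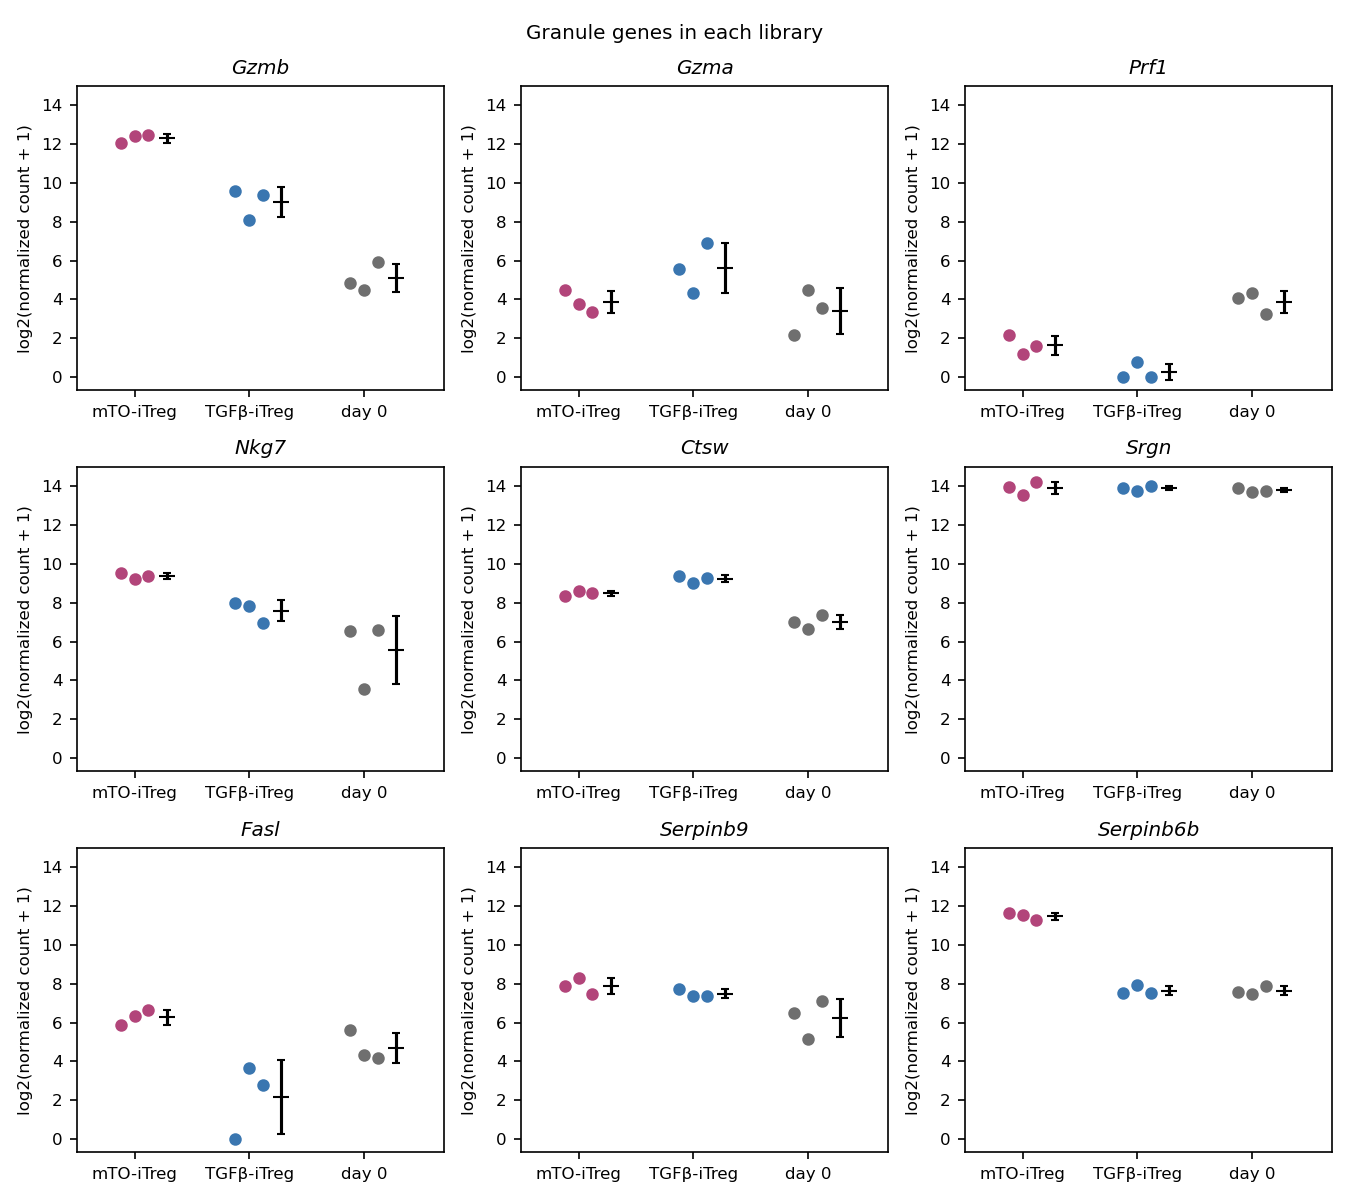
Each panel plots log2(normalized count + 1) of a granule gene in the 3 mTO-iTreg, 3 TGFβ-iTreg and 3 day 0 libraries (points), with the group mean and SD beside them. Gzmb and Serpinb6b in mTO-iTreg lie above both other groups, Prf1 is highest in day 0, and the Srgn libraries of all groups overlap.

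**Figure D2:**
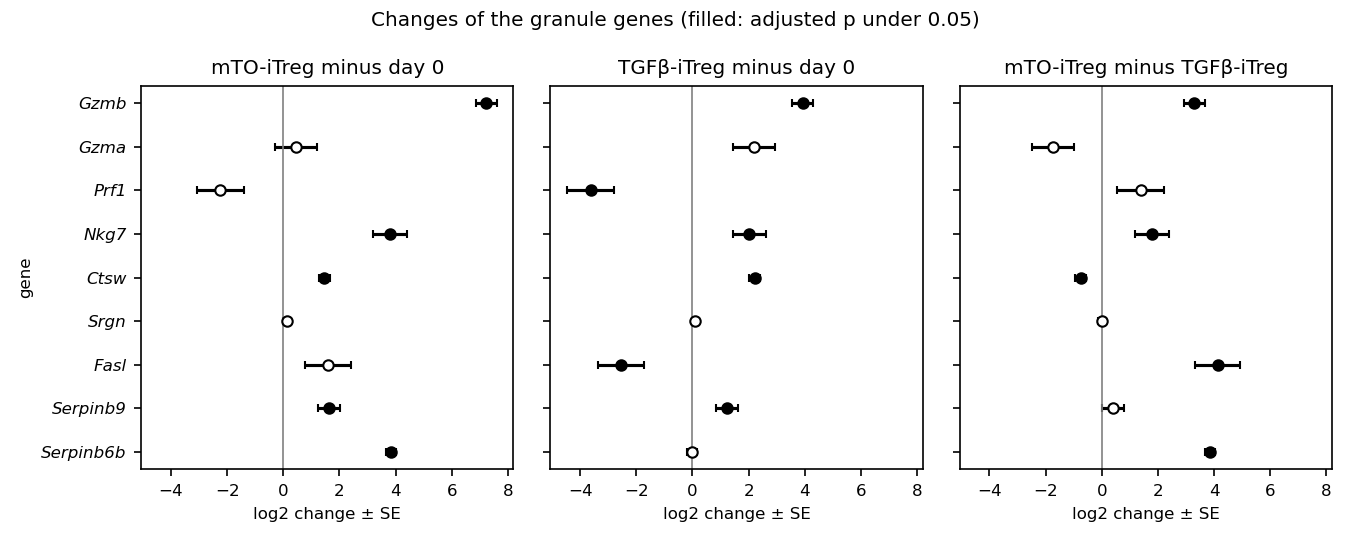
The log2 change of each gene with its standard error is plotted for mTO-iTreg minus day 0, TGFβ-iTreg minus day 0 and mTO-iTreg minus TGFβ-iTreg, and filled points passed the adjusted p of 0.05. Among the 9 genes, Gzmb has the highest change in the first contrast, 7.22, and Prf1 the lowest in the second, -3.62.

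Granzyme B, the protease that triggers apoptosis in target cells, had 4226, 5467 and 5687 normalized counts in mTO-iTreg. It had 762.5, 276.0 and 654 in TGFβ-iTreg and 28.1, 21.5 and 59.1 in day 0. The 3 groups were fully separated, with every mTO-iTreg library above every TGFβ-iTreg library and every TGFβ-iTreg library above every day 0 library. The mean of 5127 ± 788 in mTO-iTreg was 141.5-fold that of 36.2 ± 20.1 in day 0 (SD, n = 3 each), a log2 change of 7.22 ± 0.37 (SE, adjusted p = 2.4e-08). In TGFβ-iTreg the mean was 564 ± 255, which was 15.6-fold that of day 0 (log2 change 3.93, adjusted p = 1.53e-05). The mean in mTO-iTreg was 9.09-fold that of TGFβ-iTreg (log2 difference 3.30, adjusted p = 3.13e-05). All 3 calls were kept in all 22 alternatives. As recovered counts, Gzmb had 23570 in all in mTO-iTreg, 2041 in TGFβ-iTreg and 80 in day 0.

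Other cells that make granzyme B were looked for by their markers. Mast cell markers, of which 3 of 7 had a row, summed to 5.31 to 55.9 normalized counts in mTO-iTreg, 4.45 to 22.1 in TGFβ-iTreg and 5.38 to 47.5 in day 0. B cell markers (4 of 6) summed to 61.1 to 104 in mTO-iTreg, 30.6 to 69.2 in TGFβ-iTreg and 10.5 to 57.0 in day 0. The CD8 chain genes Cd8a and Cd8b1 summed to 93.0 to 125.5 in mTO-iTreg, 115 to 148 in TGFβ-iTreg and 120.3 to 149 in day 0. Myeloid and antigen-presenting cell markers (8 of 12) summed to 1093 to 1378 in mTO-iTreg, 2107 to 2307 in TGFβ-iTreg and 1898 to 6886 in day 0. Ctss made up most of that sum in the iTreg groups, with means of 687 in mTO-iTreg, 1949 in TGFβ-iTreg and 1343 in day 0. The highest sum, 6886, was that of day 0 replicate 3, with H2-Ab1 at 2463 and H2-Aa at 1984. The B cell sum was the one of these that was higher in every mTO-iTreg library than in every day 0 library, and its part in the result was not tested.

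The Gzmb gene lies on chr14:56258838-56262260, minus strand, in GRCm38 (GENCODE M21). The 250 bases before its RefSeq start (chr14:56262335-56262584, minus strand, GRCm38.p6), which lies upstream of the GENCODE gene, are shown beside those of Nkg7 (chr7:43436888-43437137, plus strand), also higher in both iTreg groups, of Prf1 (chr10:61297586-61297835, plus strand), highest at day 0, and of Serpinb6b (chr13:32965011-32965260, plus strand), highest in mTO-iTreg. Capitals mark matches, searched on both strands, to the RUNX letters TGTGGT, the T-box letters AGGTGT, the STAT letters TTCNNNGAA, the AP-1 letters TGANTCA and the CRE core letters TGACGT. The sequences run 5′ to 3′ in the direction of transcription.
Gzmb: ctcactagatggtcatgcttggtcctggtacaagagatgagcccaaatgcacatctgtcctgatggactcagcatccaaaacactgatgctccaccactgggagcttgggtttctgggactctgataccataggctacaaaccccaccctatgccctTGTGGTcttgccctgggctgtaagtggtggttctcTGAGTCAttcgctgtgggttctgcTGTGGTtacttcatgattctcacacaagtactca
Nkg7: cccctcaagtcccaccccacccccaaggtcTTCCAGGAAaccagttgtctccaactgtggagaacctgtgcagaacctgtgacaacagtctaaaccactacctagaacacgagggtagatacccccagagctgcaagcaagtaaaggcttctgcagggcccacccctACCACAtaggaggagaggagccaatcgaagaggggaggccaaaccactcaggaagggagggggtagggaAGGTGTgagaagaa
Prf1: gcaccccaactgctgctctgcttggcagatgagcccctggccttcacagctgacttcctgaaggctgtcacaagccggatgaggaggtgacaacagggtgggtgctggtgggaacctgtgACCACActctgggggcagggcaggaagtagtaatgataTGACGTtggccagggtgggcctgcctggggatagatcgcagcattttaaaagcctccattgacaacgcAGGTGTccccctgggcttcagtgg
Serpinb6b: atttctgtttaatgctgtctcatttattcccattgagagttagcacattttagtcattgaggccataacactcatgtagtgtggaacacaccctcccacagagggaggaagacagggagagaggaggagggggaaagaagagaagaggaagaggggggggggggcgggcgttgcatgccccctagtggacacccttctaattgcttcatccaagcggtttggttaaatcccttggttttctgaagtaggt

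The Gzmb window held 2 RUNX matches and 1 AP-1 match. The Nkg7 window held 1 match each of STAT, RUNX and T-box, and the Prf1 window 1 each of RUNX, CRE core and T-box. Serpinb6b had no match, nor had the windows of Fasl and Serpinb9. Gzma held 1 T-box and 1 RUNX match, and of 2 Srgn windows 1 held a RUNX and a CRE core match and the other none. Matches in the printed windows did not overlap one another. Among 32851 mouse RefSeq windows of the same kind, 14.0% held the RUNX letters, 11.8% the T-box, 7.02% the STAT, 6.75% the AP-1 and 6.47% the CRE core letters. RefSeq windows were found for 8 of the 9 genes, with Ctsw the other one. For 6 genes the bases read after the RefSeq start lay in a GENCODE transcript of that gene. For Gzmb and Prf1 they did not. The printed windows of Nkg7, Prf1 and Serpinb6b ended past the GENCODE starts of these genes (chr7:43437073, chr10:61297833 and chr13:32965209). The T-box match of Nkg7 lay inside its GENCODE gene.

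Granzyme A, a tryptase of the same granules, did not pass the test in any contrast. It had 21.1, 12.4 and 9.30 normalized counts in mTO-iTreg, 46.7, 19.0 and 117.6 in TGFβ-iTreg, and 3.51, 21.5 and 10.6 in day 0. The TGFβ-iTreg libraries were spread over a wide range, and each group overlapped with both others. The log2 change against day 0 was 0.46 ± 0.75 in mTO-iTreg (SE, adjusted p = 0.671) and 2.20 ± 0.75 in TGFβ-iTreg (adjusted p = 0.0584), and the difference between mTO-iTreg and TGFβ-iTreg was -1.74 (adjusted p = 0.105). TGFβ-iTreg against day 0 passed the threshold in 5 of 22 alternatives (adjusted p 0.0323 to 0.247 over all 22), among them those without TGFβ-iTreg replicate 2 (0.0323) and without day 0 replicate 2 (0.0336). The difference between the iTreg groups passed in 2 alternatives (0.0485 to 0.382 over all 22), 1 of them without TGFβ-iTreg replicate 2 (0.0485). Cd8a, a chain of the CD8 co-receptor, was at 51.6, 23.1 and 88.9 normalized counts in the same 3 TGFβ-iTreg libraries, with its lowest and highest library where those of Gzma lay. Cd8b1, the other CD8 chain gene, ran the opposite way, at 81.2, 92.2 and 59.3, highest where Gzma was lowest and lowest where Gzma was highest. The part of CD8+ cells in the Gzma values was not tested.

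Of 8 other granzymes listed, 3 had a row and Gzmc was the one that passed the filter on low values. Gzmc, a granzyme of activated mouse killer cells, had 14.3, 4.34 and 38.5 normalized counts in mTO-iTreg, 0, 0 and 2.47 in TGFβ-iTreg, and 0, 18.8 and 14.8 in day 0. The mTO-iTreg libraries lay above those of TGFβ-iTreg, but the difference did not pass the test (log2 3.29, adjusted p = 0.0546), and both iTreg groups overlapped with day 0 (adjusted p = 0.497 for mTO-iTreg and 0.231 for TGFβ-iTreg). Without day 0 replicate 1 Gzmc was called lower in TGFβ-iTreg than in day 0, and without that library or mTO-iTreg replicate 2 it was called higher in mTO-iTreg than in TGFβ-iTreg. Gzmk had 0 counts in mTO-iTreg, 3 in TGFβ-iTreg and 3 in day 0, and Gzmm had 4, 6 and 2.

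Perforin, the pore-forming protein that lets granzymes into a target, was highest in day 0, unlike granzyme B. It had 3.41, 1.24 and 1.99 normalized counts in mTO-iTreg, 0, 0.678 and 0 in TGFβ-iTreg, and 15.8, 18.8 and 8.44 in day 0. Every day 0 library lay above every iTreg library, in values that rest on 10 counts in all for mTO-iTreg, 1 for TGFβ-iTreg and 24 for day 0. In TGFβ-iTreg the log2 change against day 0 was -3.62 (adjusted p = 0.00878), and with no filter on low values the adjusted p was 0.00551. With the filter, perforin entered the test only through its day 0 libraries, so this p does not count as support. With 1 count in TGFβ-iTreg, the ratio of day 0 over TGFβ-iTreg was 49.6 with a 95% exact interval of 8.09 to 2039, which covers counting error only. In mTO-iTreg the log2 change against day 0 was -2.24 ± 0.84 (SE, adjusted p = 0.0529), with 0.00465 to 0.152 over the 17 alternatives that tested it and 0.0362 with no filter. The iTreg groups did not differ by the test (log2 difference 1.38 ± 0.84, SE, adjusted p = 0.244). Leaving out any single day 0 library left perforin below the filter on low values, so those alternatives gave no value for it.

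The summed markers of natural killer (NK) cells, which store perforin, were also highest in day 0, but between the iTreg groups the sum ran the other way. Of 13 listed, 10 had a row, and 6 were detected in mTO-iTreg, 8 in TGFβ-iTreg and 9 in day 0. The sum was 13.7 to 43.2 normalized counts in mTO-iTreg, 111 to 194 in TGFβ-iTreg and 382 to 1006 in day 0, with Klrb1c, Klrc1, Klre1 and Klra7 at 0 in every mTO-iTreg library. Most of the difference between the iTreg groups lay in Klrd1 and in Cd7, which averaged 19.8 in mTO-iTreg and 81.5 in TGFβ-iTreg. Klrb1c and Klre1 had 5 and 1 counts in all in TGFβ-iTreg. Tyrobp, Fcer1g, Klrk1 and Klra1 averaged 1.98, 2.96, 2.215 and 1.03 in mTO-iTreg. Their means in TGFβ-iTreg were 1.605, 2.035, 1.65 and 0.165. These values rest on 9, 13, 10 and 5 counts in all in mTO-iTreg and 9, 9, 10 and 1 in TGFβ-iTreg, too few to order the groups. The mTO-iTreg counts of Fcer1g all lay in replicate 1 and those of Klra1 in replicate 2. Klrd1, the CD94 chain of NK receptors, had 4.77, 3.72 and 2.66 normalized counts in mTO-iTreg, 118, 57.0 and 58.3 in TGFβ-iTreg, and 444, 199 and 437 in day 0. It was lower in mTO-iTreg than in day 0 (log2 -6.19, adjusted p = 5.87e-07) and lower in TGFβ-iTreg than in day 0 (log2 -2.19, adjusted p = 0.00444). It was also lower in mTO-iTreg than in TGFβ-iTreg (log2 -4.00, adjusted p = 3.13e-05), whereas every mTO-iTreg library of perforin lay above every TGFβ-iTreg library. The part of NK cells in the perforin and granzyme B values was not tested.

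**Figure D3:**
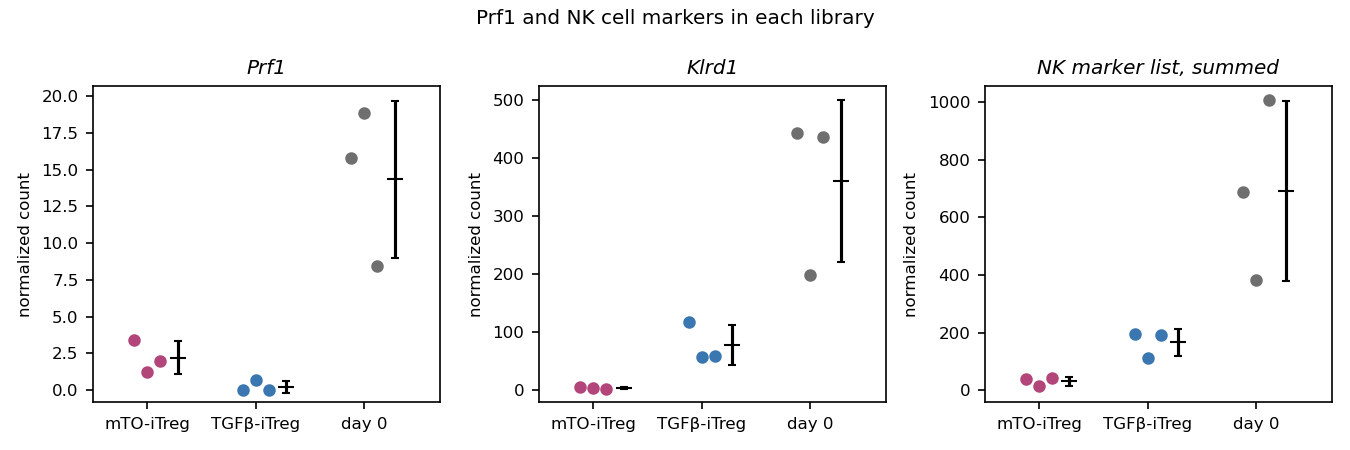
Normalized counts of Prf1, of Klrd1 and of the summed NK marker list are plotted per library for mTO-iTreg, TGFβ-iTreg and day 0, with group means and SDs. All 3 measures are highest in day 0, and the marker sum is 13.7 to 43.2 in mTO-iTreg, 111 to 194 in TGFβ-iTreg and 382 to 1006 in day 0.

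Nkg7, a granule membrane protein needed in mice for efficient degranulation, rose in both iTreg groups. It had 740.0, 599 and 672 normalized counts in mTO-iTreg, 251, 228.5 and 125 in TGFβ-iTreg, and 93.0, 10.8 and 96.0 in day 0. The groups did not overlap, and day 0 replicate 2, the shallowest day 0 library, lay far below the other day 0 libraries. The mean of 670.3 ± 70.4 in mTO-iTreg was 10.1-fold that of 66.6 ± 48.4 in day 0 (SD, n = 3 each, log2 change 3.82 ± 0.60, adjusted p = 0.000304), a call kept in all 22 alternatives. Without day 0 replicate 2 that log2 change was 2.81. In TGFβ-iTreg the mean was 3.03-fold that of day 0 (log2 change 2.03, adjusted p = 0.0323), and this call ended in 6 of 22 alternatives (0.0143 to 0.125), among them those without TGFβ-iTreg replicate 1 (0.102) and without TGFβ-iTreg replicate 2 (0.0904). Without day 0 replicate 2 the log2 change in TGFβ-iTreg was 1.02. The mean in mTO-iTreg was 3.33-fold that of TGFβ-iTreg (log2 difference 1.79, adjusted p = 0.0428), and this call ended in 10 alternatives (0.000176 to 0.141). It ended without mTO-iTreg replicate 1, 2 or 3 (0.105, 0.0771 and 0.0929) and without TGFβ-iTreg replicate 1, 2 or 3 (0.0621, 0.0685 and 0.141). The gene lies on chr7:43437073-43438249, plus strand.

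Cathepsin W, a cysteine protease made by NK cells and CD8+ T cells, was the one of the 9 genes called lower in mTO-iTreg than in TGFβ-iTreg. It had 329, 383 and 356 normalized counts in mTO-iTreg, 664, 520.2 and 618 in TGFβ-iTreg, and 126, 99.5 and 167 in day 0. The 3 groups did not overlap, with TGFβ-iTreg highest and mTO-iTreg between it and day 0. Against day 0 the mean was 2.72-fold in mTO-iTreg (log2 change 1.47, adjusted p = 0.000112) and 4.59-fold in TGFβ-iTreg (log2 change 2.21, adjusted p = 1.36e-05), both kept in all 22 alternatives. The mean of mTO-iTreg was lower than that of TGFβ-iTreg by a factor of 1.69 (log2 difference -0.75, adjusted p = 0.0156), a call that ended in 4 alternatives (0.00114 to 0.0649). It ended without mTO-iTreg replicate 1 (0.0551), without TGFβ-iTreg replicate 1 (0.0649) and without TGFβ-iTreg replicate 3 (0.0529). The gene (chr19:5465043-5468507, minus strand) overlaps the end of Fibp, which lies on the opposite strand at chr19:5460615-5465051, and whether counting used strand is not given in the sources used here.

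Serglycin, the proteoglycan core on which granzymes are stored, is also made by many other blood cells. It had 16066, 12213 and 18964 normalized counts in mTO-iTreg, 15586, 14080.0 and 16604 in TGFβ-iTreg, and 15592, 13438 and 13933 in day 0. Each group overlapped with the others, and no contrast was called. The log2 change against day 0 was 0.12 ± 0.14 in mTO-iTreg and 0.11 ± 0.14 in TGFβ-iTreg (SE, adjusted p = 0.563 and 0.658). The difference between mTO-iTreg and TGFβ-iTreg was 0.01 (adjusted p = 0.968), and its sign changed in 7 alternatives.

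Fas ligand, the membrane protein that kills through Fas, separated the iTreg groups. It had 56.6, 78.8 and 99.0 normalized counts in mTO-iTreg, 0, 11.5 and 5.93 in TGFβ-iTreg, and 47.4, 18.8 and 16.9 in day 0. Every mTO-iTreg library lay above every day 0 library and every day 0 library above every TGFβ-iTreg library. The mean of 78.1 ± 21.2 in mTO-iTreg was 13.4-fold that of 5.82 ± 5.77 in TGFβ-iTreg (SD, n = 3 each, log2 difference 4.12, adjusted p = 0.0023), kept in all 22 alternatives, with a highest adjusted p of 0.0158. Without TGFβ-iTreg replicate 1, where the gene had no count, the difference was 3.05, and without TGFβ-iTreg replicate 2 it was 4.87. The log2 change in mTO-iTreg against day 0 was 1.58 ± 0.82 (SE, adjusted p = 0.152) and was not called. It passed in 4 alternatives, among them the one without TGFβ-iTreg replicate 1 (0.0342, range 0.0342 to 0.309).

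In TGFβ-iTreg Fas ligand was lower than in day 0 by a factor of 4.76 (log2 change -2.54, adjusted p = 0.0444). That Fasl call ended in 17 of 22 alternatives (0.0196 to 0.179). It ended without mTO-iTreg replicate 1, 2 or 3 (0.057, 0.0594 and 0.0578), without TGFβ-iTreg replicate 1 or 3 (0.125 and 0.0582), and without day 0 replicate 1, 2 or 3 (0.152, 0.0664 and 0.0561). The log2 change was -1.47 without TGFβ-iTreg replicate 1 and -3.29 without TGFβ-iTreg replicate 2. Fasl lies on chr1:161780689-161788495, minus strand.

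Serpinb9 is the intracellular inhibitor of granzyme B. It had 233, 315 and 177 normalized counts in mTO-iTreg, 214, 161 and 166 in TGFβ-iTreg, and 89.5, 34.9 and 135 in day 0. Every iTreg library lay above every day 0 library, and the iTreg groups overlapped. The mean in mTO-iTreg was 2.80-fold that of day 0 (log2 change 1.63, adjusted p = 0.00608), kept in all 22 alternatives with a highest adjusted p of 0.0346. In TGFβ-iTreg it was 2.09-fold that of day 0 (log2 change 1.24, adjusted p = 0.0441), and this call ended in 12 alternatives (0.01 to 0.298). It ended without mTO-iTreg replicate 1 (0.0556), without TGFβ-iTreg replicate 1, 2 or 3 (0.134, 0.0786 and 0.0861), and without day 0 replicate 1 or 2 (0.0655 and 0.137). The iTreg groups did not differ by the test (log2 difference 0.39 ± 0.40, SE, adjusted p = 0.5). Serpinb9 lies on chr13:33003250-33017957, plus strand. Of its near relatives, Serpinb9b had 0, 6 and 0 counts in all in mTO-iTreg, TGFβ-iTreg and day 0, and how reads shared between relatives were counted is not given in the sources used here.

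Granzyme B and its inhibitor rose by unequal amounts. The log2 ratio of Gzmb over Serpinb9 within a library was 4.17, 4.11 and 5.00 in mTO-iTreg, 1.83, 0.77 and 1.97 in TGFβ-iTreg, and -1.64, -0.68 and -1.18 in day 0. The 3 groups did not overlap, and the ratio hardly depends on library scaling. It compares changes and not the levels of both genes. The mean ratio differed by 5.59 between mTO-iTreg and day 0, by 2.69 between TGFβ-iTreg and day 0, and by 2.90 between mTO-iTreg and TGFβ-iTreg. Each difference gave p = 0.1 in an exact two-sided permutation test, the smallest p that 3 against 3 libraries can give.

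**Figure D4:**
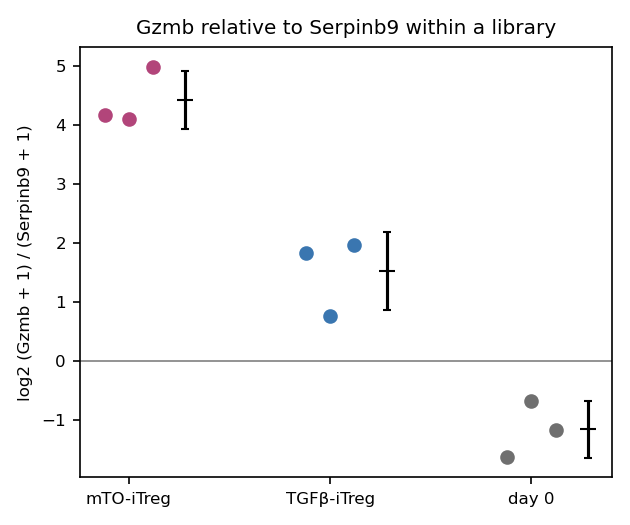
The log2 of (Gzmb + 1)/(Serpinb9 + 1) in each library is plotted for mTO-iTreg, TGFβ-iTreg and day 0, with the group mean and SD. The mTO-iTreg libraries lie at 4.11 to 5.00, the TGFβ-iTreg libraries at 0.77 to 1.97 and the day 0 libraries at -1.64 to -0.68.

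Serpinb6b, a mouse serpin that inhibits granzyme A, was higher in mTO-iTreg than in either other group. It had 3192, 2957 and 2462 normalized counts in mTO-iTreg, 179.6, 239 and 179.8 in TGFβ-iTreg, and 191, 177 and 235 in day 0. All mTO-iTreg libraries lay far above the other 6, and the TGFβ-iTreg and day 0 libraries overlapped. The mean of 2870.0 ± 373 in mTO-iTreg was 14.3-fold that of 201.3 ± 30.2 in day 0 (SD, n = 3 each, log2 change 3.83 ± 0.18, adjusted p = 9.73e-09). It was 14.4-fold that of 199.6 ± 34.5 in TGFβ-iTreg (log2 difference 3.84, adjusted p = 1.49e-08). Both calls were kept in all 22 alternatives. TGFβ-iTreg and day 0 did not differ by the test (log2 change -0.015 ± 0.18, SE, adjusted p = 0.964), with a sign that changed in 7 alternatives. Of 14 epithelial markers, which organoid cells carry, 6 had a row, and their sum was 43.6 to 124 normalized counts in mTO-iTreg, 135 to 141 in TGFβ-iTreg and 18.8 to 24.3 in day 0. Epcam and Cdh1 made up most of that sum, while Lgals4 averaged 9.81 normalized counts in mTO-iTreg, 1.30 in TGFβ-iTreg and 5.04 in day 0, and Krt18 averaged 1.55 in mTO-iTreg, 0 in TGFβ-iTreg and 0.585 in day 0. Cldn4 was at 0 in mTO-iTreg, and the part of organoid cells in the Serpinb6b values was not tested.

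The near relative Serpinb6a had 163, 119.7 and 170.1 normalized counts in mTO-iTreg, 125, 197 and 81.5 in TGFβ-iTreg, and 52.6, 107.5 and 86.5 in day 0. Its mTO-iTreg and TGFβ-iTreg libraries overlapped, unlike those of Serpinb6b, and reads shared by the pair make both values uncertain. Serpinb6b lies on chr13:32965209-32979067, plus strand, on the chromosome that also carries Serpinb9 and Gzma (chr13:113093825-113100981, minus strand).

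Genes that process granzymes and release granules were described with a list of 25, of which 23 were tested. In mTO-iTreg against day 0, 8 were higher and 6 lower (median log2 change 0.495), against 19.4% and 14.5% of all genes tested (median 0.093). In TGFβ-iTreg against day 0, 6 were higher and 1 lower (median 0.188), against 9.78% and 8.80% of all genes (median -0.015). In mTO-iTreg against TGFβ-iTreg 4 were higher and 4 lower (median 0.030), against 14.9% and 11.8% (median 0.126). These counts depended on single libraries. The 6 lower in mTO-iTreg than in day 0 became 3 without mTO-iTreg replicate 2 or day 0 replicate 1 or 3. The 6 higher in TGFβ-iTreg than in day 0 became 3 without TGFβ-iTreg replicate 1 or 2, and without replicate 1 the lysosomal membrane protein Lamp2 (0.131), the SNARE Vamp8 (0.0691) and the sorting receptor Igf2r (0.093) lost their calls. Between the iTreg groups the 4 higher became 2 without any single mTO-iTreg library or TGFβ-iTreg replicate 3, and the 4 lower became 2 without TGFβ-iTreg replicate 1. The calls of Cd63 (0.0993), Snap23 (0.133), Lamp1 (0.0566) and M6pr (0.111) between the iTreg groups ended without TGFβ-iTreg replicate 1. Cathepsin C, which turns granzyme precursors into active proteases, had 176, 205 and 129 normalized counts in mTO-iTreg, 804, 608 and 587 in TGFβ-iTreg, and 314, 489 and 508.5 in day 0. Every mTO-iTreg library of Ctsc lay below every library of the other groups. It fell in mTO-iTreg against day 0 (log2 -1.35, adjusted p = 0.000526) and against TGFβ-iTreg (log2 -1.98, adjusted p = 4.12e-05), both kept in all 22 alternatives. In TGFβ-iTreg its log2 change against day 0 was 0.625 (adjusted p = 0.0767).

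The release machinery changed in both directions. Stxbp2 (Munc18-2), needed for granule fusion, rose in mTO-iTreg, 2.73-fold over day 0 (log2 1.45, adjusted p = 0.00018) and 2.69-fold over TGFβ-iTreg (log2 1.42, adjusted p = 0.000325). Rab27a, the GTPase that docks granules at the membrane, averaged 37.9 normalized counts in mTO-iTreg, 126 in TGFβ-iTreg and 87.7 in day 0, lower in mTO-iTreg than in TGFβ-iTreg (log2 -1.70, adjusted p = 0.00255). Its call against day 0 (log2 -1.12, adjusted p = 0.0208) ended in 5 of 22 alternatives (up to 0.0891), among them those without mTO-iTreg replicate 2 (0.0527), without day 0 replicate 1 (0.0891) and without day 0 replicate 3 (0.0597). Sytl2, a Rab27a effector, fell in both iTreg groups against day 0 (log2 -4.05 in each, adjusted p = 0.000298 in mTO-iTreg and 0.000729 in TGFβ-iTreg), while its relative Sytl1 rose (log2 1.86 in mTO-iTreg and 1.64 in TGFβ-iTreg, adjusted p = 5.65e-05 and 0.000423). Ctsl, a lysosomal cathepsin, rose in both iTreg groups against day 0 (log2 2.04 in mTO-iTreg and 1.89 in TGFβ-iTreg, adjusted p = 0.000317 and 0.00141). Stx11, a syntaxin needed for granule release, rose in TGFβ-iTreg against day 0 (log2 2.21, adjusted p = 0.00377). Cd63, a granule membrane protein, and Sytl3 were called higher in mTO-iTreg than in day 0 as well (log2 3.89 and 2.64, adjusted p = 0.0168 and 0.0467). The Cd63 call ended in 5 of 21 alternatives (up to 0.0742), among them those without mTO-iTreg replicate 2 (0.0742) or 3 (0.0538) and without day 0 replicate 1 (0.0591) or 2 (0.0554). The Sytl3 call ended in 16 of 21 alternatives, with the adjusted p at 0.0537 to 0.22 without any single library other than day 0 replicate 3.

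Serpins outside the 9 genes were described with a list of 12, of which 6 were tested. In mTO-iTreg against day 0, 1 was higher and 1 lower (median log2 change 0.333), near the 19.4% and 14.5% of all genes. In mTO-iTreg against TGFβ-iTreg 1 was higher and 2 lower (median -1.44), against 14.9% and 11.8% of all genes. In TGFβ-iTreg against day 0 2 were higher (median 1.31), against 9.78% of all genes, but both calls were fragile. Serpina3f ended in 15 of 21 alternatives and Serpina3g in 8 of 22. None was left without TGFβ-iTreg replicate 1 (adjusted p = 0.152 for Serpina3f and 0.122 for Serpina3g), TGFβ-iTreg replicate 3 (0.119 and 0.114) or day 0 replicate 2 (0.158 and 0.101), and 1 was left without TGFβ-iTreg replicate 2, day 0 replicate 1 or any single mTO-iTreg library. The other serpin counts moved between 1 and 2: in mTO-iTreg against day 0, 2 were higher without TGFβ-iTreg replicate 3 or day 0 replicate 2 and 2 lower without day 0 replicate 2, and in mTO-iTreg against TGFβ-iTreg 1 was lower without TGFβ-iTreg replicate 2. Serpine2, an inhibitor of extracellular serine proteases, averaged 536.5 normalized counts in mTO-iTreg, 15.9 in TGFβ-iTreg and 11.4 in day 0, higher in mTO-iTreg than in day 0 (log2 5.70, adjusted p = 2.11e-05) and than in TGFβ-iTreg (log2 5.04, adjusted p = 9.35e-05). Serpina3g, an inhibitor of lysosomal cysteine proteases in mouse T cells, averaged 3.93 normalized counts in mTO-iTreg, 179.7 in TGFβ-iTreg and 49.5 in day 0, and fell in mTO-iTreg (log2 -3.05 against day 0 and -5.10 against TGFβ-iTreg, adjusted p = 0.00177 and 5.3e-05). Serpinb1a, an inhibitor of neutrophil-type proteases, had no count in mTO-iTreg, 14.8, 17.6 and 8.40 normalized counts in TGFβ-iTreg, and 10.5, 0 and 3.17 in day 0.

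The death ligand and receptor list had 15 genes, all tested. In mTO-iTreg 3 were higher and 2 lower than in day 0 (median log2 change 0.317), near the 19.4% and 14.5% of all genes (median 0.093). Against TGFβ-iTreg 2 were higher and 1 lower (median 0.459), at or below the 14.9% and 11.8% of all genes (median 0.126). The 2 lower than in day 0 became 1 without mTO-iTreg replicate 2, the 2 higher than in TGFβ-iTreg became 1 without mTO-iTreg replicate 3 or any single TGFβ-iTreg library, and the 1 lower became 2 without mTO-iTreg replicate 3 or day 0 replicate 2. In TGFβ-iTreg against day 0, limma and limma-voom called 0 of them (median -0.043), with 3 higher and 1 lower at an unadjusted p under 0.05, and 2 were called higher without mTO-iTreg replicate 3 and 1 when replicate 2 of either iTreg group was left out. Fas, the receptor of Fas ligand, had 321, 257 and 203 normalized counts in mTO-iTreg, 135, 103 and 168 in TGFβ-iTreg, and 78.9, 69.9 and 81.2 in day 0. The groups did not overlap, with mTO-iTreg highest and day 0 lowest. Its mean in mTO-iTreg was 3.40-fold that of day 0 (log2 1.73, adjusted p = 0.000203) and 1.92-fold that of TGFβ-iTreg (log2 0.94, adjusted p = 0.0165). The second call ended in 2 of 22 alternatives, without mTO-iTreg replicate 1 (0.0817, the highest) and without TGFβ-iTreg replicate 2 (0.0734). Ltb, the lymphotoxin β chain, fell in mTO-iTreg against day 0 (log2 -1.44, adjusted p = 6.55e-06) and against TGFβ-iTreg (log2 -1.38, adjusted p = 1.62e-05). Tnfrsf10b, the mouse receptor of the ligand TRAIL, was called higher in mTO-iTreg than in day 0 (log2 2.29, adjusted p = 0.02). That call ended in 2 of 22 alternatives, without mTO-iTreg replicate 3 (0.0696, the highest) and with no variance trend (0.0603).

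Transcription factors of cytotoxic lymphocytes were described with a list of 17, of which 16 were tested. In mTO-iTreg 5 were higher and 2 lower than in day 0 (median log2 change 0.107), against 19.4% and 14.5% of all genes (median 0.093). Against TGFβ-iTreg 4 were higher and 2 lower (median 0.426), where 14.9% and 11.8% of all genes were (median 0.126). In TGFβ-iTreg 3 were higher and 3 lower than in day 0 (median -0.274), where 9.78% and 8.80% of all genes were (median -0.015), and the 3 lower became 1 without day 0 replicate 1. Of the 4 higher in mTO-iTreg than in TGFβ-iTreg, Id2 lost its call in 17 of 22 alternatives and Notch1 in 10. Without TGFβ-iTreg replicate 1 both ended (0.151 for Id2 and 0.126 for Notch1), and 2 of the list were higher without TGFβ-iTreg replicate 1 or 2 or any single mTO-iTreg library. Eomes, the T-box factor of killer T cells, had 685.5, 1243 and 495 normalized counts in mTO-iTreg, 71.3, 48.1 and 20.3 in TGFβ-iTreg, and 77.2, 26.9 and 113 in day 0. All mTO-iTreg libraries stood above all others, and TGFβ-iTreg and day 0 overlapped. Eomes rose in mTO-iTreg against day 0 (log2 3.58, adjusted p = 0.000177) and against TGFβ-iTreg (log2 4.15, adjusted p = 8.84e-05), both kept in all 22 alternatives. Stat4, which relays interleukin 12 signals, was higher in mTO-iTreg than in TGFβ-iTreg (log2 2.12, adjusted p = 9.41e-05), and Id3, a repressor of E proteins, was lower (log2 -1.53, adjusted p = 0.000982). Runx3, which acts with T-box factors in CD8+ T cells, rose in mTO-iTreg against day 0 (log2 1.43, adjusted p = 0.000738). Runx3 was also called higher in TGFβ-iTreg than in day 0 (log2 0.845, adjusted p = 0.0349), a call that ended in 8 of 22 alternatives. Between the iTreg groups Runx3 was not called. Bhlhe40 rose in both iTreg groups against day 0 (log2 4.11 in mTO-iTreg and 2.65 in TGFβ-iTreg, adjusted p = 0.00015 and 0.00746), and Irf4 in TGFβ-iTreg (log2 2.60, adjusted p = 0.000627). Id2, a related repressor, fell in TGFβ-iTreg against day 0 (log2 -1.69, adjusted p = 0.00246). Tbx21, the other T-box factor of the list, and Prdm1 had no call in any contrast, at 1.86 to 51.8 normalized counts per library.

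**Figure D5:**
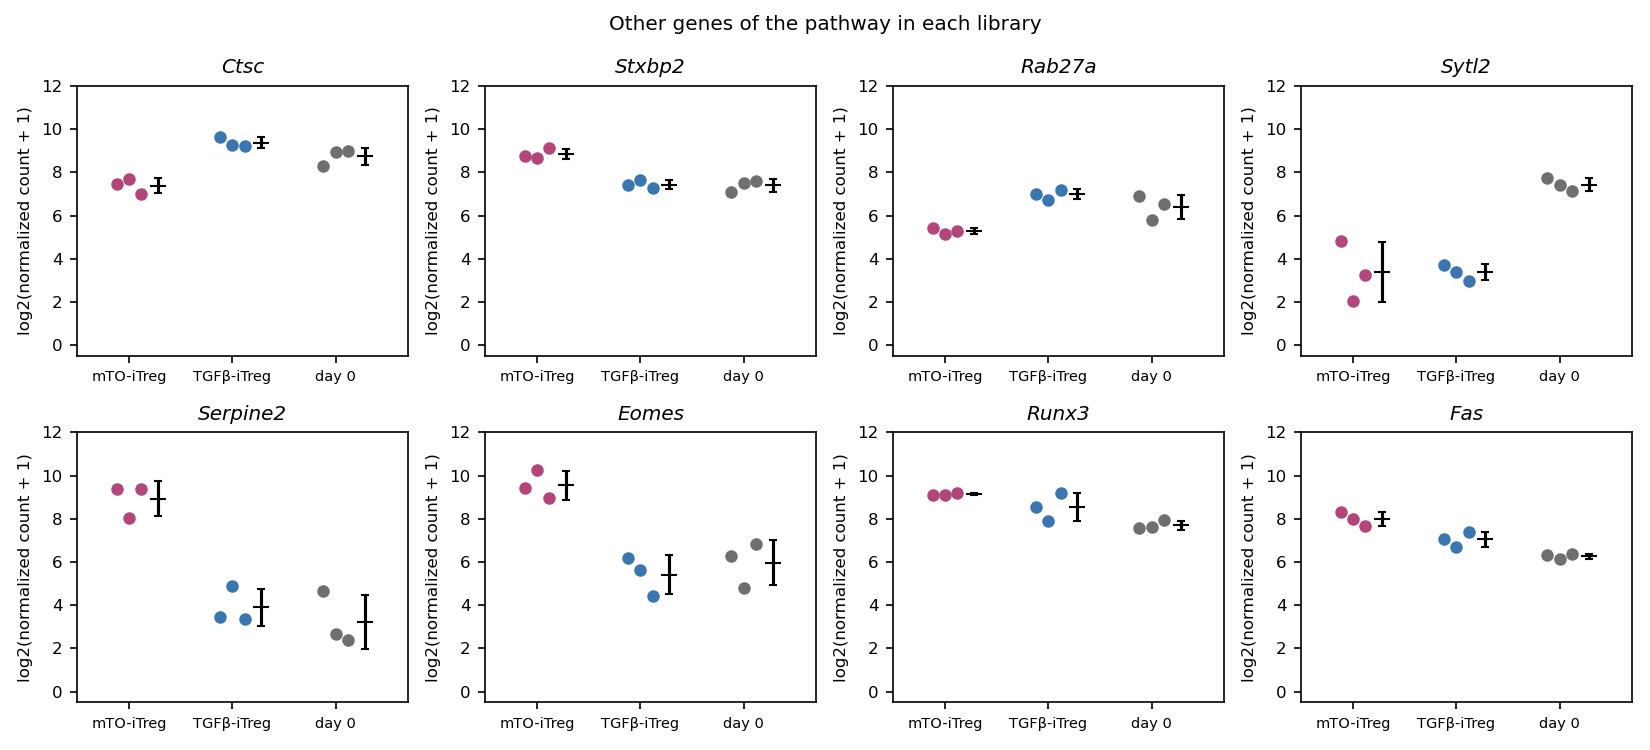
Log2(normalized count + 1) of 8 genes that act with the granule proteins is plotted per library for mTO-iTreg, TGFβ-iTreg and day 0, with group means and SDs. Ctsc and Rab27a are lowest and Stxbp2, Serpine2, Eomes and Fas highest in mTO-iTreg, Sytl2 is highest in day 0, and the Runx3 libraries of mTO-iTreg and TGFβ-iTreg overlap.

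Cytokines and receptors that killer cells show beside granule genes were described with a list of 14, of which 11 were tested. In mTO-iTreg against day 0, limma and limma-voom called 0 higher, with 1 higher at an unadjusted p under 0.05, and limma called 4 lower (median log2 change -1.57), against 14.5% of all genes (median 0.093). Of these 4, Xcl1 (0.0701) and Cd226 (0.0947) lost their calls without day 0 replicate 3, which left 2, and Cd226 lost its call in 9 of 22 alternatives. In mTO-iTreg against TGFβ-iTreg 2 were lower (median -0.201), against 11.8% of all genes (median 0.126). In TGFβ-iTreg against day 0 2 were higher and 2 lower (median -0.503), against 9.78% and 8.80% of all genes (median -0.015). Xcl1, a chemokine of activated killer cells, averaged 35.6 normalized counts in mTO-iTreg, 1618 in TGFβ-iTreg and 117 in day 0, lower in mTO-iTreg than in TGFβ-iTreg (log2 -5.62, adjusted p = 3.3e-06). Ccl4, another such chemokine, averaged 7.76 in mTO-iTreg, 475 in TGFβ-iTreg and 30.5 in day 0 (log2 -6.36 for mTO-iTreg minus TGFβ-iTreg, adjusted p = 0.000108). Ccl5 fell in both iTreg groups against day 0 (log2 -3.19 in mTO-iTreg and -2.98 in TGFβ-iTreg, adjusted p = 0.000563 and 0.00212). Crtam, an adhesion receptor of killer cells, fell in mTO-iTreg against day 0 (log2 -2.85, adjusted p = 0.0098), and Cd226, an activating receptor, fell in TGFβ-iTreg (log2 -1.66, adjusted p = 0.00537). Ifng, the interferon of killer cells, had 7.50, 2.48 and 0 normalized counts in mTO-iTreg, 49.2, 0 and 4.45 in TGFβ-iTreg, and 29.8, 0 and 24.3 in day 0, with no call.

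Genes of the IL-2 receptor and its response were described with a list of 11, since the IL-2 dose differed between the cultures. In mTO-iTreg 9 were higher and 1 lower than in day 0 (median log2 change 2.43), against 19.4% and 14.5% of all genes (median 0.093). Against TGFβ-iTreg 4 were higher and 1 lower (median 0.131), where 14.9% and 11.8% of all genes were (median 0.126), and the 1 lower became 2 without TGFβ-iTreg replicate 2 or day 0 replicate 1 and 3 without day 0 replicate 3. In TGFβ-iTreg 9 were higher than in day 0 (median 1.80), against 9.78% of all genes (median -0.015). There limma and limma-voom called 0 lower, with 1 lower at an unadjusted p under 0.05, and 1 was called lower without mTO-iTreg replicate 1 or 2 or day 0 replicate 2. Il2ra, the receptor's α chain, averaged 2398 normalized counts in mTO-iTreg at 20 U/ml IL-2, 3651 in TGFβ-iTreg at 300 U/ml and 273 in day 0, and mTO-iTreg and TGFβ-iTreg did not differ by the test (log2 -0.58, adjusted p = 0.282). Il2rb, the β chain, averaged 911.6 in mTO-iTreg, 842 in TGFβ-iTreg and 151 in day 0 (log2 0.13 for mTO-iTreg minus TGFβ-iTreg, adjusted p = 0.757). Cish, a STAT5 target, averaged 1490.0 in mTO-iTreg, 459.5 in TGFβ-iTreg and 67.5 in day 0, higher in mTO-iTreg than in TGFβ-iTreg (log2 1.70, adjusted p = 0.0024). Pim1, Socs3 and Bcl2 were higher in mTO-iTreg than in TGFβ-iTreg as well (log2 1.80, 1.74 and 0.84, adjusted p = 0.000841, 3.14e-05 and 0.00392). Myc was the 1 called lower (log2 -0.799, adjusted p = 0.00546), a call kept in all 22 alternatives. Socs2 averaged 1111 in mTO-iTreg, 3493 in TGFβ-iTreg and 228 in day 0, and its difference between mTO-iTreg and TGFβ-iTreg was not called (log2 -1.56, adjusted p = 0.0534).

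Patterns most like those of the granzymes were looked up over the 9 libraries among 9097 genes, as Pearson correlations of log2(normalized count + 1). Libraries of a group share their culture condition, so the correlations describe these libraries. Closest to Gzmb were Cdc34 (r = 0.991), Ikzf2 (r = 0.988), Gpt2 (r = 0.986), Ccr9 (r = 0.986) and Ulk1 (r = 0.984). Ikzf2, which encodes the transcription factor Helios, averaged 868 ± 132 normalized counts in mTO-iTreg, 260.4 ± 99.7 in TGFβ-iTreg and 66.0 ± 7.68 in day 0 (SD, n = 3 each). Ccr9, a gut-homing chemokine receptor, averaged 972 ± 156 in mTO-iTreg, 329 ± 92.8 in TGFβ-iTreg and 119 ± 14.3 in day 0. Closest to Gzma were Bag1 (r = 0.948), Tfrc (r = 0.929), Zbtb42 (r = 0.921), Zbtb17 (r = 0.897) and Rad23b (r = 0.885). The group means of the first set were highest in mTO-iTreg and those of the second set in TGFβ-iTreg, as for the granzyme each set was chosen by.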

How the data were processed

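Bulk RNA of 9 libraries was sequenced by a modified CEL-Seq method. Per the submitters' processing notes, BWA, the mm10 build and DESeq2 were used; the sources used here give no versions, no counter and no handling of strand or molecular identifiers. The authors deposited normalized counts (each library scaled by its own factor, per the labels' tool list), written with decimal commas. Once the worth of 1 count per library was found from the lowest values, 100% of values were whole within 0.1, and these recovered counts summed to the depths given.

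Rows with at least 5 normalized counts in at least 3 of 9 libraries were tested (10983 of 14912). The 3 group means were fitted to log2(normalized count + 1) with limma 3.58.1 in R 4.3.3 (eBayes with a trend, 6 residual degrees of freedom, Benjamini-Hochberg adjustment over all rows tested, threshold 0.05). limma-voom on recovered counts replaced a planned count test and was chosen after seeing the data. The code was tested on simulated data. Ratios were tested with scipy 1.17.1.

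The genes named were all 9 members in every library, from each list up to 4 called genes per contrast with the largest change, a few fixed whatever their result, and the 5 most similar patterns. Of the called ones, the text gives those that bear on the 9 genes, and a few more that made up or moved the count of a list. Members and lists were chosen with earlier results of these data known. Gene positions are from GENCODE M21 and sequences from RefSeq (GRCm38.p6, the same build as mm10).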

Additional observations from a re-analysis of the deposited data

Results flagged for a closer look

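The changes of 5 genes against day 0 differed between mTO-iTreg and TGFβ-iTreg, by the limma test of mTO-iTreg against TGFβ-iTreg, which is the difference of both changes since they share day 0. For Gzmb the log2 difference was 3.30, for Serpinb6b 3.84 and for Fasl 4.12, each kept in all 22 alternatives. For Nkg7 it was 1.79, and that call ended in 10 alternatives. For Ctsw it was -0.75, higher in TGFβ-iTreg, and that call ended in 4 alternatives. Fasl was above day 0 in every mTO-iTreg library and below it in every TGFβ-iTreg library, while its own change against day 0 had an adjusted p of 0.152 in mTO-iTreg, passing in 4 of 22 alternatives, and 0.0444 in TGFβ-iTreg, a call that ended in 17 of 22. No outlying library was looked for, since the groups hold 3 libraries each.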

How the results depend on the processing

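Over 22 alternatives, 579 changes of the 9 genes were recomputed: 494 kept their direction and side of the threshold, 49 lost a call, 19 gained one and 17 changed sign. The sign changes were in uncalled values near 0. Gzma in mTO-iTreg against day 0 was -0.002 under quantile normalization and -0.152 to 1.008 without single libraries (lowest without day 0 replicate 1). Srgn in mTO-iTreg against day 0 was -0.029 to 0.288 without single libraries (lowest without mTO-iTreg replicate 3). Srgn in mTO-iTreg against TGFβ-iTreg was -0.015 at equal totals, -0.102 with TMM, -0.008 with quantile normalization, -0.111 with limma-voom, and -0.136 to 0.182 without single libraries (below 0 without mTO-iTreg replicate 1 or 3 or TGFβ-iTreg replicate 2). Serpinb6b in TGFβ-iTreg against day 0 was 0.232 at equal totals, 0.035 with TMM, 0.114 scaled without mitochondrial genes and Rn45s, 0.012 with limma-voom, and -0.153 to 0.102 without single libraries (above 0 without TGFβ-iTreg replicate 1 or 3 or day 0 replicate 3).

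The genes called lower in mTO-iTreg against day 0 numbered 1 in place of 0 with a pseudocount of 5, no filter, TMM, quantile normalization, a fit of 2 groups, no variance trend and limma-voom. In TGFβ-iTreg against day 0 the 4 called higher became 2 with a fit of 2 groups, no variance trend, limma-voom and without the shallowest libraries, and 2 to 4 without single libraries. The 2 called lower there became 1 with a pseudocount of 0.5, no filter, a filter at 20, equal totals, scaling without mitochondrial genes, a fit of 2 groups, no variance trend and limma-voom, 0 without the shallowest libraries, and 0 to 2 without single libraries. Perforin fell below the filter without any single day 0 library, with a filter at 20 and without the shallowest libraries, so fewer genes were tested there. In mTO-iTreg against TGFβ-iTreg the 1 called lower became 2 with quantile normalization, 0 with no variance trend, and 0 to 2 without single libraries. The cause of the other moves was not tested. The Gzmb over Serpinb9 ratio kept its direction throughout.

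No shared effect of the replicate number was seen: deviations of same-numbered libraries correlated at -0.050 to 0.060. These correlations cannot tell whether same-numbered samples were prepared together. With the replicate number as a block, the calls of Fasl (adjusted p = 0.0541) and Serpinb9 (0.0531) in TGFβ-iTreg against day 0 ended, which left 1 gene called lower there, and no other call of the 9 genes changed.

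Of all genes tested in TGFβ-iTreg against day 0, 1074 were higher and 966 lower. Equal totals gave 1793 higher and 582 lower (75.5% higher, against 52.6%), scaling without mitochondrial genes 65.7% higher, no variance trend 692 higher, limma-voom 701, and leaving out the shallowest libraries 629 higher and 537 lower. Without TGFβ-iTreg replicate 2 or 3, 710 and 685 were higher. In mTO-iTreg against day 0 equal totals gave 70.6% higher, against 57.1%. Equal totals moved the median of all genes to 0.313 in mTO-iTreg and 0.230 in TGFβ-iTreg against day 0, against 0.093 and -0.015, and quantile normalization moved it to -0.073 in mTO-iTreg. Depth limits what can be said of low genes: perforin rests on 1 count and Fasl on 29 in TGFβ-iTreg, and Gzma on 20 in day 0. The planned quasi-likelihood count test was not run.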
